A study of Zea mays with 6 samples.

Results

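A group of 109 genes stood at least 2-fold lower in every kernel library labelled transgenic than in any kernel library labelled control. The genes were taken from 33051 gene IDs listed for each of 6 maize libraries. The genes were selected on the FPKM values of all 6 libraries. A gene was included when its mean over the 3 control libraries was at least 5 FPKM and its smallest control value was at least 2 times its largest transgenic value. FPKM is the number of sequenced fragments scaled to the length of the gene and to the mapped fragments of the library. IDs from Zm00001d024150 to Zm00001d024270 were left out. Of 12984 genes at that control level outside the left-out IDs, 109 (0.839%) met the rule. Because the same values chose the genes, their differences between the groups are given as a description, with no test.

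All 6 libraries came from kernels of the maize inbred line KN5585 at 10 days after pollination, and the age and inbred background were common to both groups. The 3 libraries labelled transgenic carry the treatment label ZmSUS1 transgenic and come from 1 selected transgenic strain. The 3 libraries labelled control carry the treatment label normal and come from the matching negative control without the transgene. The sources used here do not give the promoter that drives the transgene. A single strain cannot separate the effect of a transgene from other differences of that strain. The 3 libraries of each group are described as biological replicates in the series text, with no further detail of plants or ears.

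SUS1 encodes a sucrose synthase, which splits sucrose, the sugar that reaches the kernel from the leaves, into fructose and UDP-glucose. In the filling kernel these products feed cell wall, respiration and starch. At this stage the endosperm is starting to deposit starch and storage protein, and a whole kernel also holds the embryo and the maternal seed coat. In RNA of whole kernels, fewer cells of a type and less RNA per cell cannot be told apart. Neither the files nor the reference table of RefSeq genes pairs any of the 109 IDs with a gene name, and 0 of 32852 nuclear IDs matched that table. The functions of the 109 genes and their chromosomes are therefore not given here, and the kernel label could not be checked against marker genes.

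SUS1 (Zm00001d047253), the gene of the transgene, was lower in the libraries labelled transgenic. Its control values were 214, 210 and 221 FPKM and its transgenic values 155, 149 and 160 FPKM, so the groups did not overlap and the transgenic level was 71.9% of control. A 2-sided exact permutation test of 3 against 3 libraries gave its smallest possible value, p = 0.1, and limma over all genes gave a log2 fold change of -0.47 (adjusted p = 0.000759). A lower level is opposite to the direction of an overexpression design, and the reason was not tested. Groups are therefore named by their labels throughout, and the direction of every difference given here rests on those labels. SUS1 was not among the 109 genes. Summed FPKM was similar in all libraries, at 1362380 ± 4484 in the controls and 1369410 ± 9365 in the transgenic libraries (SD, n = 3 each). Fragment totals are not given, so the depth behind each value is unknown.

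Lower values were common in this comparison. Among the 20514 genes whose mean over the 6 libraries reached 1 FPKM, limma called 3316 (16.2%) lower and 591 (2.88%) higher in the transgenic libraries at an adjusted p under 0.05, and 280 (1.36%) were lower with a log2 fold change of -1 or less. The median tested gene had a log2 fold change of -0.13. With median-ratio rescaling, which removes this shift, 1537 genes were lower and 1217 higher. With quantile normalization 1440 were lower and 1369 higher, and with each library scaled by its sum outside the 20 most abundant genes 1398 were lower and 1405 higher. Every transgenic value lay below every control value in 4905 (37.8%) of the 12984 genes at a mean control level of at least 5 FPKM. All 109 genes were among the limma calls and 105 had a log2 fold change of -1 or less, which the rule itself makes likely, so nothing is read from these counts. The mirrored rule, with a transgenic mean of at least 5 FPKM and the groups exchanged, was met by 22 of 12351 genes.

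**Figure D1:**
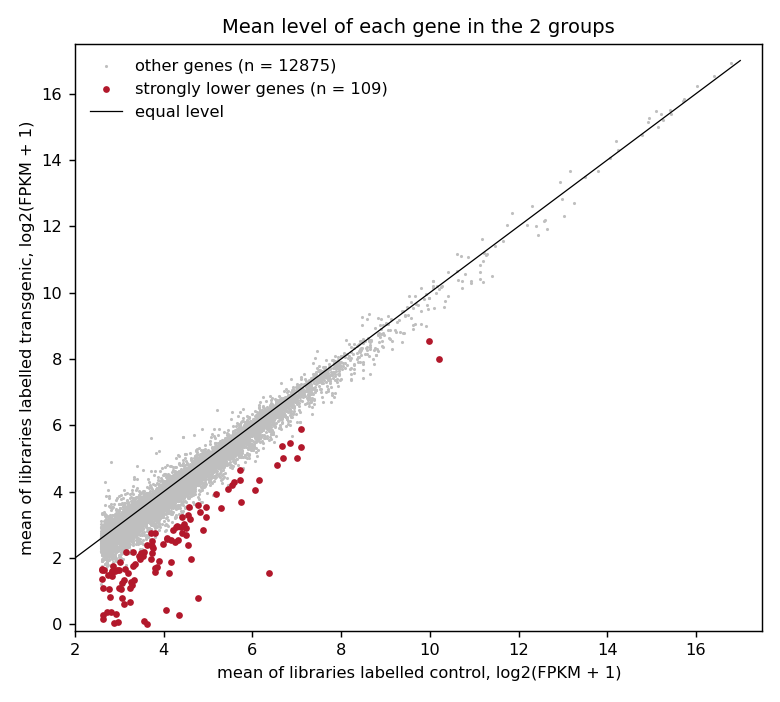
Mean level in the 3 libraries labelled control (horizontal axis) and the 3 labelled transgenic (vertical axis), both as log2(FPKM + 1), for genes at a mean control level of at least 5 FPKM. Red points are the 109 strongly lower genes, grey points all other genes, and the line marks equal level. The red points lie below the line of equal level at low, middle and high control levels, some grey points lie among them, and a few lie close to 0 on the vertical axis.

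The sizes of the differences spread over a wide range. The mean transgenic level of a gene was between 0% and 47.7% of its mean control level, with a median of 28.7%. As a fold on deposited FPKM, the median was 3.47-fold lower, with quartiles at 2.78-fold and 5.83-fold, over the 108 genes with a transgenic mean above 0. Of these, 34 were under 3-fold lower, 42 from 3-fold to under 5-fold, 17 from 5-fold to under 10-fold and 15 at 10-fold or more. On the log2(FPKM + 1) scale the median limma log2 fold change of the 109 genes was -1.62, against -0.13 over all genes tested. With median-ratio rescaling it was -1.49 against -0.0041. With this rescaling the rule held for 84 of the 109 genes. None of the 109 genes shared its 6 values with another gene, as indistinguishable gene copies would.

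**Figure D2:**
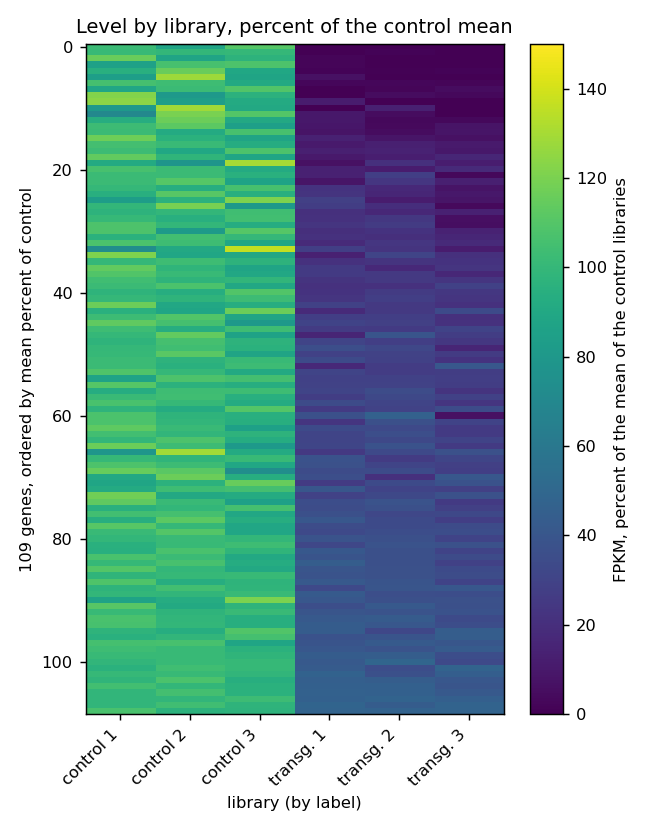
FPKM of each of the 109 genes (rows, ordered by mean percent of control) in each of the 6 libraries (columns), as a percent of the mean of that gene in the 3 control libraries. The control columns lie around 100% and the transgenic columns below 50% on average, and rows near the top are close to 0% in transgenic 1, 2 and 3 alike.

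Most of the 109 genes had a low to middle control level, as did the genes that could have met the rule. The lowest control mean was 5.04 FPKM, the median 12.99 FPKM and the highest 1173 FPKM, while the median of all 12984 genes that could have met the rule was 14.6 FPKM. From 5 to under 10 FPKM there were 42 genes, from 10 to under 20 FPKM 30 genes, from 20 to under 50 FPKM 22 genes and from 50 to under 100 FPKM 8 genes. A further 5 genes lay from 100 to under 1000 FPKM and 2 genes above 1000 FPKM. The share of genes meeting the rule was 0.985% in the lowest of these classes, 0.768%, 0.714%, 0.801% and 0.756% in the next ones, and 2.74% in the highest, which holds only 2 of 73 genes. Large folds were spread unevenly over these classes, which was not tested. Of the 42 genes under 10 FPKM, 19 were at least 5-fold lower or listed at 0, against 14 of the 67 genes at 10 FPKM or more and 1 of the 15 genes at 50 FPKM or more. A transgenic value near 0 leaves the size of such a fold uncertain.

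Together the 109 genes made up a small part of the libraries. Their FPKM summed to 4862, 4737 and 4478 in controls 1 to 3, and to 1404, 1387 and 1283 in transgenic 1 to 3. This was 0.344 ± 0.0135% of the summed FPKM in the controls and 0.0991 ± 0.00418% in the transgenic libraries (SD, n = 3 each). The 2 most abundant genes held 46.4% of the summed control level. Without them, the sums were 2516 ± 78.4 and 734 ± 37.4 FPKM (SD, n = 3 each).

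In 6 genes no transgenic library exceeded 0.5 FPKM. Zm00001d013036 was listed at 0 in all 3 transgenic libraries, against control values of 11.6, 9.92 and 12.5 FPKM. It was the only 1 of the 109 genes listed at 0 throughout one group. Zm00001d033455 had 6.36, 6.27 and 6.29 FPKM in the controls, and was listed at 0 in transgenic 1 and 3 and at 0.09 FPKM in transgenic 2. Its control values were the most even of the 109 genes, with a coefficient of variation of 0.749%. Zm00001d036370 had 12.5, 9.47 and 10.5 FPKM in the controls, with 0.21 FPKM in transgenic 1 and 0 listed in transgenic 2 and 3. Zm00001d023811 had 5.83, 7.22 and 7.37 FPKM in the controls, with 0.14 FPKM in transgenic 1 and 0 listed in transgenic 2 and 3. In both genes a single transgenic library carried all of the remaining signal.

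Zm00001d031158 had the highest control level of the 6 genes, at 18.3, 22.2 and 17.2 FPKM. Unlike the others it was above 0 in every transgenic library, at 0.25, 0.13 and 0.25 FPKM. Zm00001d031743 had the lowest control level of the 6, at 4.58, 5.26 and 5.63 FPKM, and was listed at 0, 0.10 and 0.27 FPKM in transgenic 1 to 3. Across the 6 genes the smallest control value was 4.58 FPKM and the largest transgenic value 0.27 FPKM, so the groups were far apart in each. The number depends on the limit and on 1 library. It was 2 with a limit of 0.1 FPKM, 12 with a limit of 1 FPKM, and 10 without transgenic 1, which had the highest value of the 3 transgenic libraries in Zm00001d003620 and Zm00001d048949, at 0.73 and 1.04 FPKM. Of the 109 genes, 10 were listed at 0 in at least 1 transgenic library and 0 were listed at 0 in a control library. The rule allows a control value of 0 only where all 3 transgenic values are 0, so nothing is read from this contrast. At the other end, 81 genes had at least 1 FPKM and 36 at least 5 FPKM in every transgenic library.

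**Figure D3:**
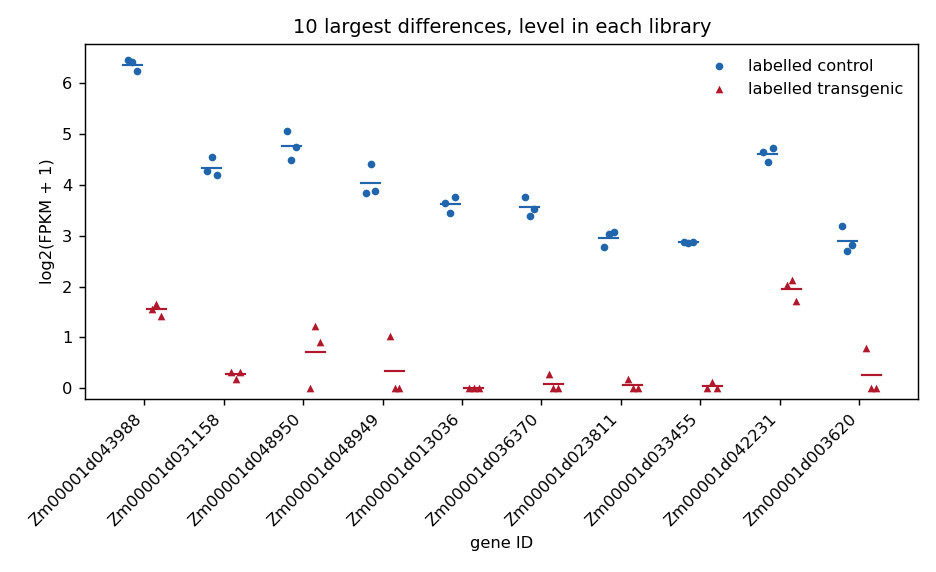
Level of the 10 genes with the largest ratio of group means (pseudocount 1) in each library, as log2(FPKM + 1). Blue circles are the 3 libraries labelled control, red triangles the 3 labelled transgenic, and bars the mean of the 3 points. In each gene the groups are apart, and triangles at 0 are libraries in which the gene is listed at 0.

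Beyond the near-0 genes, 5 more were among the 10 largest differences. Zm00001d043988 combined a high control level with a low transgenic level. It had control values of 85.9, 83.8 and 73.9 FPKM and transgenic values of 1.95, 2.17 and 1.68 FPKM, which left 2.38% of its control level. It ranked 10th by control level among the 109 genes and was the most abundant gene at 10-fold or more. Zm00001d042231 had 24.0, 20.9 and 25.2 FPKM in the controls and 3.09, 3.39 and 2.27 FPKM in the transgenic libraries, at 12.5% of control. Zm00001d003620 had 8.12, 5.50 and 6.01 FPKM in the controls and was listed at 0.73, 0 and 0 FPKM in transgenic 1 to 3. Its transgenic signal again came from transgenic 1 alone.

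Zm00001d048949 and Zm00001d048950 have consecutive IDs and were both among the 10 largest differences. Zm00001d048949 had control values of 13.2, 20.1 and 13.7 FPKM, and was listed at 1.04, 0 and 0 FPKM in transgenic 1 to 3. Zm00001d048950 had 32.2, 21.5 and 25.6 FPKM in the controls, and 0, 1.33 and 0.89 FPKM were listed in the transgenic libraries. The libraries with the highest control value and with a transgenic 0 differed between these neighbours. Another of the 109 genes, Zm00001d048920, lies 29 ID numbers below and had 28.4 FPKM as its control mean and 21.8% of that in the transgenic libraries. This gene was chosen after its values were seen.

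The 7 genes with a control mean of at least 100 FPKM kept between 21.8% and 43.0% of it. Zm00001d015327 had control values of 1173, 1210 and 1136 FPKM and transgenic values of 251, 262 and 255 FPKM, at 21.8% of control. Zm00001d052759 had 1100, 999 and 910 FPKM in the controls and 394, 374 and 338 FPKM in the transgenic libraries, at 36.8% of control. These 2 genes alone exceeded 1000 FPKM, and replicate 3 was the lowest library of both groups in the second of them. Zm00001d003712 had 137, 137 and 134 FPKM in the controls and 64.3, 50.2 and 60.8 FPKM in the transgenic libraries, at 43.0% of control. Zm00001d050635 had 138, 141 and 128 FPKM in the controls and 36.8, 44.0 and 38.9 FPKM in the transgenic libraries, at 29.5% of control. Zm00001d041822 had 127, 124 and 131 FPKM in the controls and 29.7, 35.6 and 29.2 FPKM in the transgenic libraries, at 24.7% of control. The control values of these genes differed by far less than the gap between the groups.

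A further 4 abundant genes had control means from 93.3 to 114 FPKM. Zm00001d029333 had control values of 113, 113 and 116 FPKM and 48.3, 41.0 and 40.4 FPKM in the transgenic libraries. Zm00001d039387 had a wider control range, at 114, 103 and 86.6 FPKM, and 34.1, 33.6 and 26.1 FPKM in the transgenic libraries. In this gene replicate 3 was the lowest library in both groups. Zm00001d046471 had 103, 101 and 95.4 FPKM in the controls and 40.6, 38.1 and 42.9 FPKM in the transgenic libraries. Zm00001d018459 had 103, 89.8 and 87.3 FPKM in the controls and 27.5, 27.6 and 25.6 FPKM in the transgenic libraries. Except for Zm00001d043988, the 10 most abundant genes kept between 21.8% and 43.0% of their control level.

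**Figure D4:**
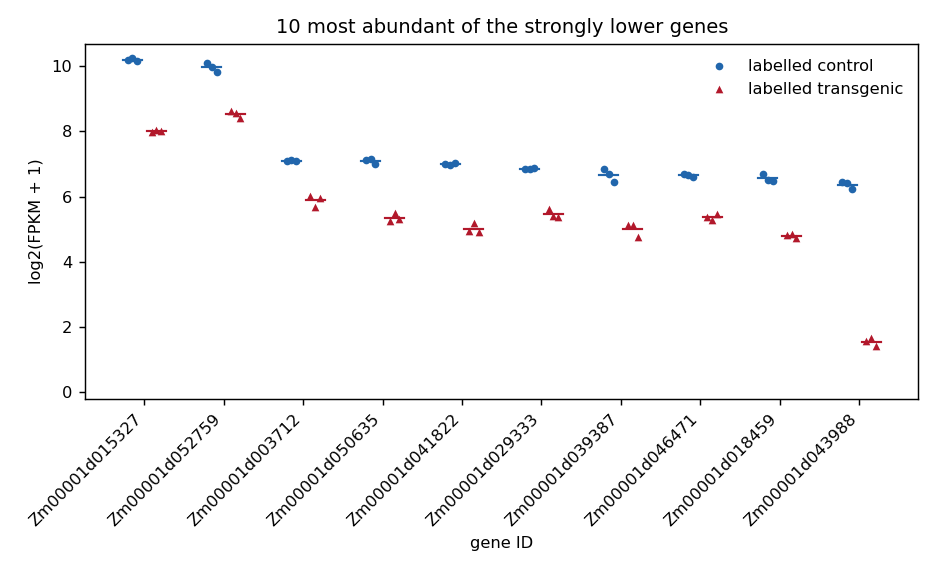
Level of the 10 genes with the highest control mean among the 109, in each library, as log2(FPKM + 1). Blue circles are the libraries labelled control, red triangles those labelled transgenic, and bars the mean of the 3 points. The groups do not overlap in any of the 10 genes, and Zm00001d043988, at the right, has by far the widest gap.

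The threshold of 2 fell within a continuous range of values. Just inside it, the smallest control value over the largest transgenic value was 2.002 for Zm00001d007876, 2.01 for Zm00001d020268 and Zm00001d048802, and 2.03 for Zm00001d053845 and Zm00001d032618. Just outside it, the ratio was 1.998 for Zm00001d033637, 1.99 for Zm00001d021702, 1.97 for Zm00001d019027 and 1.96 for Zm00001d034145. Among the former, Zm00001d007876 had 13.0, 11.7 and 11.8 FPKM against 5.83, 5.72 and 5.82 FPKM. Among the latter, Zm00001d021702 had a transgenic mean of 9.68 FPKM, which was 48.4% of its control mean. The genes on either side of the limit had like values, so membership near it is a matter of the limit. Zm00001d053845 was inside by its ratio in spite of an uneven transgenic group, at 3.83, 4.89 and 0.70 FPKM. A ratio of at least 1.5 gave 328 genes and a ratio of at least 3 gave 43.

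Within the control group the 109 genes varied about as much as other genes. The median coefficient of variation among the 3 controls was 8.62%, against 7.40% for the other genes at a mean control level of at least 5 FPKM. Among the 3 transgenic libraries it was 17.1% against 7.71%, and the lower transgenic level of the 109 genes moves with this spread. For genes at 5 to 20 FPKM in the transgenic libraries it was 9.77% over 29 of the 109 genes and 8.61% over 7714 other genes. Transgenic 3 was the lowest transgenic library in 57 (57.6%) of the 99 genes without tied values, and in 38.9% of 12790 other genes. Control 3 was the lowest control in 52 (48.6%) of 107 genes and in 45.4% of 12794 other genes. The median deviation of transgenic 3 from its group was -0.077 on the log2(FPKM + 1) scale in the 109 genes and -0.0079 in the others. For control 3 it was -0.054 in the 109 genes and -0.024 in the others. Transgenic 3 was thus somewhat lower in these genes, by far less than the group difference. This comparison was not matched on level, and the 109 genes had lower transgenic levels than the others. Control 3 was the lowest control about as often as in other genes.

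The same measure was read in left-out libraries, for sets of genes chosen again without them. The rule was applied to 4 libraries, and the same-numbered pair left out was then examined, which is a description of 2 libraries with no test, added after the data were seen. Chosen without replicate 1, 148 genes met the rule, and 128 (86.5%) of them were at least 2-fold lower in transgenic 1 than in control 1. Of all 12948 genes at the same control level, 2.29% were. Chosen without replicate 2, it was 118 (85.5%) of 138 genes in the pair left out, against 2.25% of 12983. Chosen without replicate 3, it was 128 (83.1%) of 154 genes, against 2.38% of 13047. Lower by any amount in the 3 pairs left out were 146 (98.6%), 135 (97.8%) and 149 (96.8%) of the chosen genes, against 73.5%, 71.5% and 68.9% of all genes at that control level. In these 3 sets 108, 106 and 108 genes also met the rule on all libraries. By that rule such genes are at least 2-fold lower in every pair. The shares therefore describe the sets chosen on 4 libraries and are no check of the genes chosen on all libraries. The pair left out came from the same strain and the same control as the libraries that chose the genes.

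Some of the 109 genes had nearby ID numbers, although most lay apart. ID numbers are taken here as a guide to order along the genome, which the files do not state. Of the 109 genes, 13 (11.9%) had another of them within 10 ID numbers, while 534 (4.15%) of the 12874 other nuclear genes at that control level had 1 of the 109 within that distance. The 13 genes form 6 groups. Within 50 ID numbers it was 33 (30.3%) against 17.9%, and within 5 it was 8 (7.34%) against 2.07%. When single libraries were left out and the genes chosen again, the count of 13 moved most without control 3, to 25 of 139 genes, and without transgenic 3, to 21 of 121 genes. These sets are larger, and the share of other genes near them is not given here, so nothing is read from the 2 counts. The 109 genes were found in 45 of 55 blocks of 1000 ID numbers, with at most 7 in a block. That block, from Zm00001d007000 to Zm00001d007999, held 7 of the 109 among 237 genes at that control level (2.95%). The highest share was in the block from Zm00001d024000 to Zm00001d024999, where 6 of 182 genes met the rule (3.30%), not counting the left-out IDs that lie in it. Over all genes at that control level the share was 0.839%. Both blocks were picked as the highest of the 55, so no grouping is read from them.

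The 6 groups differed in how alike their members were. Zm00001d017494 kept 14.3% and the next ID, Zm00001d017495, 29.5% of control, from control means of 8.72 and 9.95 FPKM. Zm00001d042226 and Zm00001d042231 kept 15.7% and 12.5%, from 16.8 and 23.3 FPKM. In the second pair the control values of the 2 genes did not overlap. Zm00001d018830, Zm00001d018837 and Zm00001d018847 kept 38.5%, 32.9% and 30.2%, although their control means ranged from 45.4 to 6.94 FPKM. Zm00001d024610 and Zm00001d024620 kept 38.1% and 29.3%, from 12.3 and 14.9 FPKM. Zm00001d041741 and Zm00001d041746 kept 34.0% and 39.6%, from 6.09 and 22.5 FPKM. The pair of Zm00001d048949 and Zm00001d048950, described above, kept 2.21% and 2.80%.

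Genes with IDs close to the 109, which did not meet the rule themselves, were read from the limma comparison over all genes. Of 93 tested genes with an ID number directly next to a member, 26 (28.0%) were called lower by limma and 4 (4.30%) higher, against 16.2% and 2.88% of all genes tested. At a distance of 2 to 5 ID numbers 68 of 325 (20.9%) were called lower, at 6 to 10 70 of 414 (16.9%) and at 11 to 20 109 of 765 (14.2%). The median log2 fold change was -0.16 directly next to a member and -0.13 over all genes tested, so most of these neighbours differed little. Within 5 ID numbers the share called lower was 22.5% of 418 genes. With median-ratio rescaling it was 11.03%, against 7.50% of all genes. The difference between these shares was not tested. Genes that overlap may share reads, and whether the counting used strand is unknown.

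**Figure D5:**
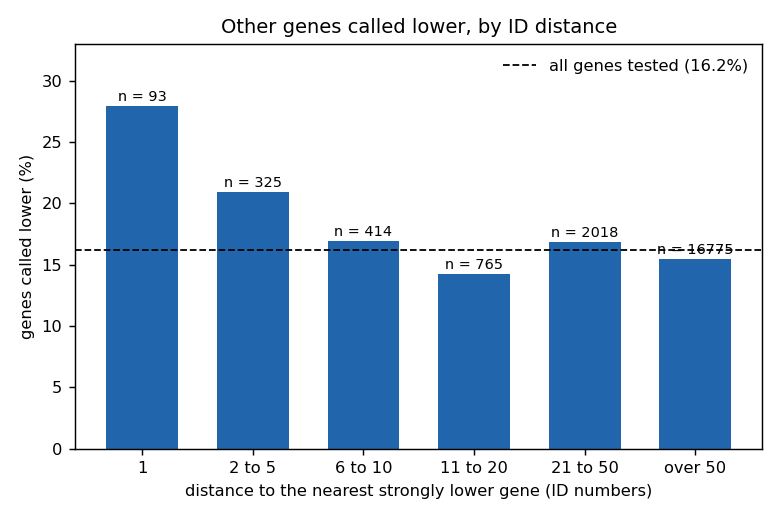
Share of genes called lower in the transgenic libraries (limma, adjusted p under 0.05; vertical axis, percent), by the distance in ID numbers to the nearest of the 109 genes, which are themselves left out. The number of genes tested stands above each bar and the dashed line marks 16.2% of all genes tested. The bar directly next to a member is the tallest, at 28.0%, and bars from 6 ID numbers onwards lie near the line.

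Among the 93 direct neighbours, 5 were called lower with a log2 fold change of -1 or less, which is 5.38%, against 0.858% of all tested nuclear genes outside the 109. The 5 genes were named after their values were seen. Zm00001d002160 had control values of 238, 221 and 189 FPKM and transgenic values of 102, 102 and 104 FPKM. It kept 47.4% of control, next to Zm00001d002161 at 40.5%. Zm00001d027524 had 17.7, 15.7 and 13.3 FPKM against 5.39, 6.86 and 6.20 FPKM. It kept 39.5% of control, next to Zm00001d027525 at 38.3%. Zm00001d045459 kept 35.1%, next to Zm00001d045460 at 32.2%. In these 3 pairs both genes kept a similar part of their level. Both genes of each pair were picked for a lower transgenic level, so likeness between them is partly built in and nothing is read from it. Zm00001d007443 kept 36.7%, next to Zm00001d007444 at 25.5%, and Zm00001d053785 kept 45.4%, next to Zm00001d053784 at 25.1%. Their smallest control value over their largest transgenic value was 1.63 to 1.95, under the limit of 2.

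The nearest other gene with a mean of at least 1 FPKM was read on each side of the 6 genes, within 10 ID numbers. Of these 12 flanking genes, 2 (16.7%) were lower, 1 was higher and 9 did not pass the limma test. Of all genes tested 16.2% were lower and 81.0% did not pass, so these shares are near the background. Next to Zm00001d013036, listed at 0 in the transgenic libraries, Zm00001d013035 had 6.70 ± 1.11 and 6.64 ± 1.05 FPKM (SD, n = 3 each). On its other side Zm00001d013037 rose from 9.83 ± 0.242 to 13.9 ± 0.657 FPKM (SD, n = 3 each; limma, adjusted p = 0.00490). Zm00001d036371, directly above Zm00001d036370, had 8.29 ± 0.365 and 8.27 ± 0.278 FPKM (SD, n = 3 each). The 2 flanking genes that were lower were Zm00001d031741, at 28.1 ± 3.70 and 20.4 ± 1.15 FPKM, and Zm00001d036366, at 1.84 ± 0.351 and 0.487 ± 0.180 FPKM (SD, n = 3 each). None of the 12 reached the drop of the near-0 gene beside it.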

How the data were processed

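Messenger RNA libraries of maize kernels were compared as 3 libraries labelled transgenic and 3 labelled control, grouped by sample title. Per the file headers, the authors deposited FPKM, in 1 table for each library and with 2 decimals. The sources used here do not give the aligner, counting tool, strand setting, genome build or annotation. The submitters' processing notes list DESeq2, with no version or role. FPKM are relative to the library total, and an FPKM of 0 is given as listed at 0. Fragment totals are unknown, so no counting interval was computed.

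The 109 genes and the gene groups were chosen with earlier results of these data known. From the deposited FPKM, log2(FPKM + 1) of the 20514 genes whose mean reached 1 FPKM was compared with limma 3.58.1 in R 4.3.3 (moderated variance with a mean trend, 6 libraries, 2-sided, Benjamini-Hochberg adjustment, threshold 0.05). Tables were handled with pandas 2.3.3 in Python 3.11.15. On simulated data with 200 changed genes the model recovered 49.3% of 1.5-fold, 76.1% of 2-fold and 98.5% of 4-fold changes over 20514 genes. These changes were set on the log2(FPKM + 1) scale. The simulation had far fewer changed genes than were called here and no shift over all genes. Its shares therefore do not give the recovery in the real comparison. Across genes, the deviations from the group mean of libraries with the same number had correlations of 0.135, 0.122 and 0.325, all above 0.1, so libraries with the same number were treated as pairs in one alternative. No label states such pairs. Control 2 and transgenic 1 also correlated at 0.105.

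The genes named are those near 0, the 10 largest ratios of group means (pseudocount 1), the 10 highest control levels, those with another within 10 ID numbers, the genes on either side of the ratio of 2, and SUS1, up to 40 in all. The farthest of the genes outside the ratio was dropped for this limit. The lists of endosperm, embryo, aleurone, maternal and stress markers could not be used, since SUS1 is the only nuclear gene that the sources name by ID. Alternatives covered the rule's limits, pseudocount, filter, scaling, pairing and left-out libraries.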

Additional observations from a re-analysis of the deposited data

How the results depend on the processing

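The number of genes moved mainly with the limits of the rule. It was 328 at a ratio of at least 1.5, 43 at 3, 197 at a control mean of at least 2 FPKM, 67 at 10 FPKM and 240 by group means alone. Leaving out single libraries gave 117 to 139 genes and kept at least 106 of the 109. A left-out library cannot lower the ratio of a gene, so the 109 genes could be lost only through their control mean. Nothing is read from the number kept. Leaving out replicate 3 of both groups, added after the data were seen, gave 154. Median-ratio rescaling gave 84 genes, scaling outside the 20 most abundant genes 82, and the left-out IDs put back 112. Genes near 0 numbered 2 at a limit of 0.1 FPKM, 12 at 1 FPKM and 5 to 10 without single libraries. Genes with another nearby numbered 8 within 5 and 33 within 50 ID numbers, and 13 to 25 in the larger sets chosen without single libraries.

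The median log2 ratio of group means over the 109 genes was -1.57 with a pseudocount of 1, -1.69 with 0.5, -1.78 with 0.1, -1.44 with median-ratio rescaling, -1.42 scaled outside the 20 most abundant genes and -1.62 to -1.55 without single libraries. Over all genes, 3316 were lower, 1537 with median-ratio rescaling, 1440 with quantile normalization, 1398 scaled outside the 20 most abundant genes and 1903 to 2835 without single libraries, where each fit holds fewer samples. The share called lower within 5 ID numbers of a member was 11.03%, 11.2% and 10.8% under these 3 scalings and 13.3% to 19.3% without single libraries, above that of all genes in each case; these alternatives were added after the data were seen. The cause of these shifts was not tested. With the replicate number as a block, 3753 genes were lower, and asking for the ratio of 2 within each same-numbered pair gave 144 genes; pairing changed no call of SUS1 or of the 109 genes. SUS1 was lower with an adjusted limma p under 0.05 in all 14 alternatives. The 40 genes given by the naming rule besides SUS1 kept their direction in all 552 values under alternatives, 90 of which moved by more than the spread within groups. These genes were chosen for a wide gap in the same libraries, which makes a kept direction likely, so nothing is read from it. Unknown depth limits values under about 1 FPKM.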

Other observations

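Below the control level of 5 FPKM, a further 88 genes with a control mean of at least 2 FPKM had a smallest control value at least 2 times the largest transgenic value. In 22 of these no transgenic library exceeded 0.5 FPKM, and 3 were listed at 0 in all 3 transgenic libraries. Of the 88 genes, 7 lay within 10 ID numbers of 1 of the 109 genes. Among the 12874 other nuclear genes at a control mean of at least 5 FPKM, 534 (4.15%) did. The share over all genes at the lower control level was not computed, so nothing is read from the 7.

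Among the IDs left out of the rule, 3 of 17 genes at a control mean of at least 5 FPKM met the rest of it, and they are close in ID number. Zm00001d024208 had 7.04, 7.44 and 8.51 FPKM in controls 1 to 3 and was listed at 0.08, 0.28 and 0 FPKM in transgenic 1 to 3. Zm00001d024210 had 8.66, 10.9 and 10.1 FPKM against 0.20, 0 and 0.31 FPKM, and Zm00001d024211 had 10.3, 8.83 and 10.3 FPKM and was listed at 0 in all 3 transgenic libraries. All 3 would count among the near-0 genes.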
